A study of Drosophila melanogaster with 31 samples.

Results

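The genes described here encode translation initiation and elongation factors of Drosophila melanogaster, measured in ovaries. They were taken as every gene of the deposited expression table whose symbol starts with eIF or eEF, which gave 45 of 9251 genes, 37 eIF and 8 eEF. The choice used symbols alone and no measured value. In translation initiation, eIF2 brings the initiator tRNA to the small ribosomal subunit, eIF3 holds the complex together, and the cap-binding eIF4 factors recruit the mRNA. Once a start codon is found the large subunit joins, and eEF1 and eEF2 then carry elongation by delivering aminoacyl-tRNA and moving the ribosome along. In the ovary these proteins serve germ cells that fill the egg with ribosomes and stored mRNA, and several of the genes have paralogs that are known for use in testis or in other tissues.

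The series compared ovaries with mutated or depleted tst (a Ski complex helicase), pelo (a ribosome rescue factor), hfp (a splicing factor) or bam (a differentiation factor), using poly(A) RNA-seq of whole ovaries and of polysome RNA. Levels are in TPM, a transcript abundance scaled by length, so genes can be compared with each other. Total mRNA came from 8 groups of 2 libraries. Every group but young wild type, the input, polysome and bam groups included, was 1 to 3 days old. Adult wild type carried UAS-Dcr-2.D, w1118 and the nos-GAL4 driver NGT40, which acts in germ cells. Young wild type had that genotype too and was dissected 0 to 3 hours after eclosion. The tst mutant was the insertion tstMB10212 over the deficiency Df(3R)Exel9013, and tst RNAi used UAS-Dcr2 with nosGAL4 to deplete tst in the germline. The pelo mutant was pelo1/pelo1 and its heterozygote pelo1/CyO. The hfp mutant was hfp9/hfp9 and its heterozygote hfp9/TM2. Input and polysome libraries came from 2 preparations each of control, tst RNAi and pelo mutant ovaries. The 2 control preparations differ, since preparation 1 has the driver genotype of adult wild type and preparation 2 is pelo1/CyO. Single libraries came from bam RNAi driven by nosGAL4, as input and polysome, and from a bamΔ86 mutant.

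Libraries of the replicated groups held 7233 to 8376 genes at 1 TPM or more, and read depth is unknown. The sources do not say whether replicates came from separate animals, so p-values measure only the spread between these samples. Germline markers (vas, nos, osk, otu, orb, aub, bcd and grk) were all above 0 in every library, with sums from 523 to 3722 TPM. Levels of tst were 35.3 and 39.6 TPM in the adult libraries, against 6.34 and 8.62 TPM in its mutant and 6.77 and 11.7 TPM under RNAi, and 32.4 and 30.3 TPM in control inputs against 18.0 and 14.4 TPM in RNAi inputs. Those of pelo were 45.1 and 90.5 TPM in heterozygotes, 10.8 and 44.6 TPM in mutants, 137 and 76.9 TPM in control inputs and 33.1 and 34.4 TPM in pelo inputs, so pelo mutant library 2 was close to heterozygote library 1. Levels of hfp were 25.8 and 48.1 TPM in heterozygotes and 9.29 and 20.8 TPM in mutants, and those of bam 3.10 TPM after its RNAi (input) and 5.61 TPM in its mutant. The replicate libraries numbered 1 of the pelo groups stood apart, with many genes lower than in the libraries numbered 2 (median difference 0.41 and 0.88 log2 in heterozygote and mutant), so values of single genes are given per library. The young, tst mutant and tst RNAi comparisons share the adult libraries as controls, and comparisons of the inputs and of the ratios share the control preparations.

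Factor mRNAs took 3.37 to 5.56% of all TPM in the 16 total mRNA libraries (median 3.94%), most of it in elongation genes (1.98 to 3.96%). Of the 45 genes, 8 had a mean of at least 1000 TPM, 30 of at least 100 TPM and 5 a mean under 10 TPM, and 27 were among the 500 genes with the highest mean. The GTPase gene eEF1alpha1, which delivers aminoacyl-tRNA, was second of all genes with a mean of 13515 TPM and ranged from 5120 TPM in hfp mutant 1 to 20297 TPM in young wild type 2. The translocase gene eEF2 followed with a mean of 4734 TPM, and eEF5, the hypusinated factor also known as eIF5A, with 4467 TPM. The exchange factor subunits eEF1gamma, eEF1beta and eEF1delta had means of 2415, 1990 and 1050 TPM. The lowest general elongation factor was eEF1alpha2, a paralog of eEF1alpha1 on 3R (31738468 to 31743306), with a mean of 2.60 TPM, and eEF1alpha1 exceeded it by 1352 to 33924 times in these libraries. The selenocysteine factor eEFSec had a mean of 15.3 TPM.

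**Figure D1:**
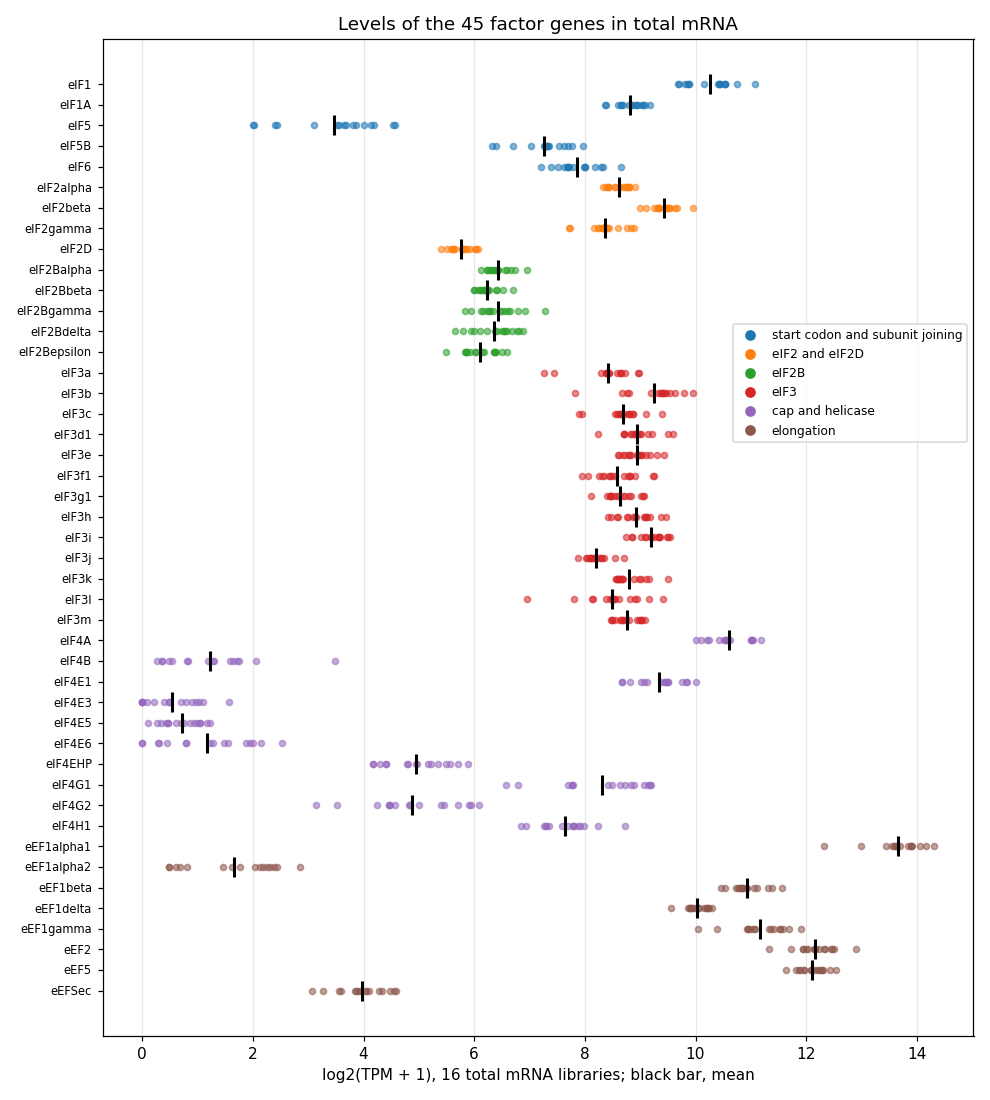
Level of each of the 45 genes as log2(TPM + 1), with 1 point for each of the 16 total mRNA libraries, colour for the role and a black bar for the mean. Elongation genes lie highest (eEF1alpha1, mean 13515 TPM), and the means of the eIF3 subunits run from 298 to 638 TPM. Those of eIF4E3, eIF4E5, eIF4E6, eIF4B and eEF1alpha2 lie under 10 TPM.

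Mean levels of the subunits of one complex were of the same order, while single libraries spread more. The 13 eIF3 subunits had means from 298 TPM (eIF3j) to 638 TPM (eIF3b), and within a library the highest was 2.29 to 5.92 times the lowest. The 5 subunits of eIF2B, which reloads eIF2 with GTP, had means from 69.5 TPM (eIF2Bepsilon) to 88.2 TPM (eIF2Bgamma), with a within-library ratio of 1.09 to 2.39. The eIF2 subunits eIF2beta, eIF2alpha and eIF2gamma had means of 693, 394 and 335 TPM, with a within-library ratio of 1.46 to 4.74. The alternative initiator factor eIF2D had a mean of 54.0 TPM.

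The cap-binding group spread most. It ran from the helicase gene eIF4A with a mean of 1599 TPM to eIF4E3, listed at 0 to 1.98 TPM, with a mean of 0.541 TPM. Its relative eIF4E5 had a mean of 0.683 TPM and was too low to be tested in the inputs and polysomes. The canonical cap-binding protein gene eIF4E1 had a mean of 675 TPM and exceeded eIF4EHP, a cap-binding repressor, by 17.6 to 30.2 times. The scaffold gene eIF4G1 exceeded eIF4G2, a paralog required in the testis, by 7.73 to 20.2 times. Among start codon and subunit joining factors eIF1, which guards start codon choice, was highest with a mean of 1271 TPM. The gene of the eIF2 GTPase activator eIF5 was lowest with 11.7 TPM.

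Across the 16 libraries 14 genes varied under 2-fold and 8 over 4-fold, taken as the highest over the lowest TPM + 1. The steadiest was eIF2alpha at 1.49-fold, and the most variable were eIF4B at 9.28-fold, eIF4G2 at 7.67-fold, eIF4G1 at 6.21-fold and eIF5 at 5.88-fold. A large share of that variation lay between replicates of one group. The gene eIF5 (X, 15987008 to 15991974) stood at 3.07 and 15.0 TPM in adult libraries, 3.03 and 10.5 TPM in young ones, 4.27 and 13.5 TPM in tst mutants and 4.39 and 17.3 TPM under tst RNAi. In these 4 groups replicate 1 was the lower library each time, while replicate 2 was lower in all 4 pelo and hfp groups. In those first 4 groups the strand label is N/A for the libraries numbered 1, and it is reverse for every other library. The span of eIF5 overlaps CG46312 in the RefSeq annotation, so its reads and those of that gene may not be told apart where strand was not used, and 22 of the 45 genes overlap another gene in this way. In the pelo libraries eIF4G1 was at 93.8 and 575 TPM in the heterozygote and 110 and 472 TPM in the mutant, and eIF4G2 at 10.5 and 60.8 TPM and at 7.82 and 51.3 TPM. For both genes the replicates of a group lay further apart than the genotypes within a replicate number.

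The comparison of young with adult wild type asks how factor mRNAs differ between ovaries just after eclosion and egg-producing ovaries. Most were higher in the young libraries, led by eIF3. None of the 45 passed limma's test as fitted without the replicate number, against 11.1% of 8864 genes. The unadjusted p was under 0.05 for 6 factor genes, all higher, and for 1316 of all genes higher and 841 lower. The median log2 fold change was 0.40 for the 45 genes and -0.05 for all genes. Both young libraries lay above both adult libraries for 29 factor genes (background 31.6%) and below them for 2 (background 34.6%). All 13 eIF3 subunits were among the 29, with log2 fold changes from 0.33 to 0.83 and a median of 0.63. That median was 0.50 between libraries numbered 1 and 0.75 between libraries numbered 2, and all 13 stayed positive with quantile normalization, equal library medians and TPM rescaled without the 50 highest genes.

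The subunit eIF3l was at 370 and 331 TPM in adult and 571 and 681 TPM in young libraries. The subunit eIF3h was at 341 and 381 TPM in adult and 560 and 660 TPM in young libraries. The groups did not overlap for either. The gene eIF6, whose product keeps the ribosomal subunits apart, was at 195 and 146 TPM in adult and 289 and 321 TPM in young libraries, again without overlap (log2 fold change 0.85, SE 0.26, adjusted p = 0.0586 in limma). Deviations of libraries with the same number went together in these groups, and once that number was fitted as a block 6 factor genes rose and none fell (background 12.4% rose and 8.19% fell). These were eIF6 (0.85, SE 0.23, limma adjusted p = 0.0250), eIF3l (0.83, SE 0.24, adjusted p = 0.0355), eIF3h (0.75, SE 0.20, adjusted p = 0.0216), eIF3e (0.71, SE 0.21, adjusted p = 0.0355), eIF3f1 (0.70, SE 0.18, adjusted p = 0.0214) and eIF3g1 (0.67, SE 0.17, adjusted p = 0.0212). Late follicle cell and eggshell markers (10 of 10 measured, none at 0) summed to 68522 and 48766 TPM in adult and 875 and 970 TPM in young libraries, and muscle sheath markers (7 of 7, none at 0) to 405 and 278 TPM and to 4683 and 6255 TPM. Their part in the factor values was not tested, and in whole ovaries fewer cells of a type and less RNA per cell cannot be told apart.

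**Figure D2:**
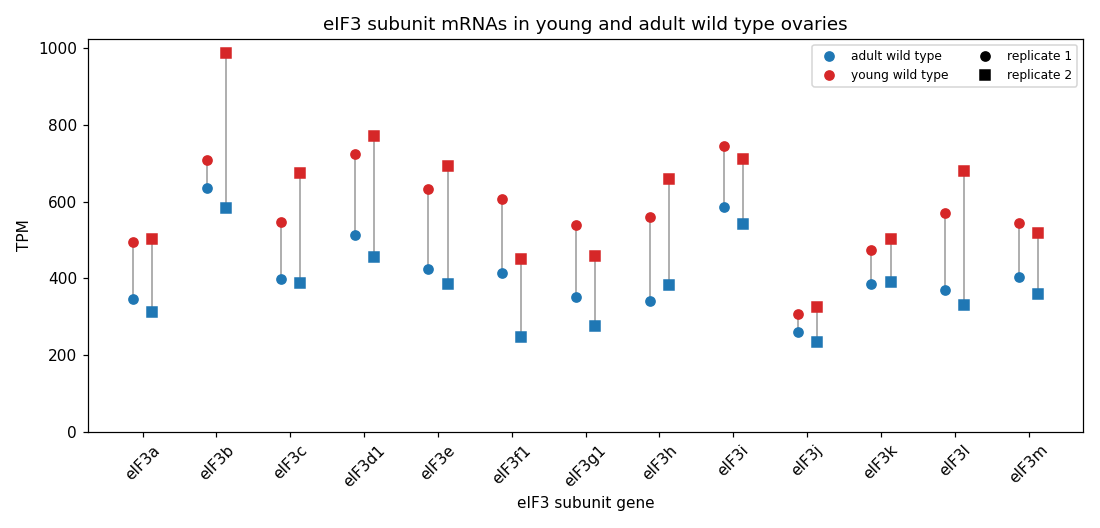
TPM of the 13 eIF3 subunit genes in the 2 adult (blue) and 2 young (red) wild type libraries, with circles for replicate 1, squares for replicate 2 and grey lines joining libraries of the same number. For each subunit both young points lie above both adult points, with log2 fold changes from 0.33 to 0.83.

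Other groups of factors differed less between young and adult ovaries. The 8 elongation genes had a median of 0.38, the 4 eIF2 and eIF2D genes 0.35, the 5 eIF2B genes 0.10 and the 10 cap and helicase genes 0.19. In the last group eIF4E6 was at 0.225 and 0.365 TPM in adult and 2.98 and 1.78 TPM in young libraries (1.36, SE 0.64, limma adjusted p = 0.216). The helicase cofactor gene eIF4B was at 0.282 and 10.2 TPM in adult and 0.274 and 0.741 TPM in young libraries, and it fell (-2.91, limma adjusted p = 0.0255) only in the fit that left out adult library 1, where the lone adult library is assumed to vary like the other groups. The elongation paralog eEF1alpha2 was at 0.525 and 0.597 TPM in adult and 2.09 and 3.98 TPM in young libraries (1.33, SE 0.49, limma adjusted p = 0.113).

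In tst mutants the factor genes as a set leaned the same way with a smaller median, and none passed without the block (background 4.23%). The 10 cap and helicase genes split into 5 higher and 5 lower, with a median of -0.03 against 0.19 in young wild type. Single genes could differ more than in young wild type, as did eIF4E6 (1.87 against 1.36) and eEF1alpha2 (1.67 against 1.33). The unadjusted p was under 0.05 for 4, all higher, and for 1299 of all 8864 genes higher and 353 lower. The median was 0.22 against 0.02 for all genes, and 25 factor genes lay above both adult libraries (background 32.3%) and 1 below (background 29%). The 13 eIF3 subunits were all positive, with a median of 0.26. The start codon factor gene eIF1 was at 819 and 1132 TPM in adult libraries and 1384 and 2160 TPM in tst mutants. The groups did not overlap, and eIF1 rose when the replicate number was blocked (0.84, SE 0.21, limma adjusted p = 0.0285) but not without it (SE 0.36, adjusted p = 0.228). It was the 1 factor gene to pass with the block, which called 8.75% of all genes as rises and 2.47% as falls. Late follicle cell and eggshell markers (10 of 10, none at 0) summed to 68522 and 48766 TPM in adult libraries and 21134 and 20458 TPM in tst mutants, and their part in the factor values was not tested. The gene eIF6 stood at 254 and 256 TPM in the mutant. Without a call, eIF4E6 was at 4.76 and 2.87 TPM in tst mutants (1.87). Both lay above its adult libraries, at 0.225 and 0.365 TPM, neither of which reached the filter of 1 TPM.

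In tst RNAi, with the driver of the wild type libraries, the 45 genes had a median of 0.11 against 0.04 for all genes. None passed (background 1.02%). An unadjusted p under 0.05 was reached by 2, both higher, against 606 of all 8864 genes higher and 82 lower. These 2, eIF4E3 and eEF1alpha2, were under the filter of 1 TPM in both adult libraries. Of the 45 genes, 14 lay above both adult libraries (background 23.4%) and 3 below (background 13.7%). Here eIF4E3, a cap-binding paralog that acts in Drosophila spermatogenesis (3L, 8229224 to 8230568), was listed at 0 and 0.160 TPM in adult libraries and at 1.98 and 0.967 TPM in tst RNAi (1.17, SE 0.37, limma adjusted p = 0.231). It entered the fit through tst RNAi 1, young wild type 1 and hfp mutant 1, with no adult or heterozygote library at 1 TPM. The gene eIF4E6 was at 1.35 and 1.92 TPM (1.02, SE 0.64, adjusted p = 1.00 in limma).

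No factor gene passed in the pelo or hfp mutants against their heterozygotes. In pelo the median was 0.02 against -0.01 for all genes, and it was 0.14 between libraries numbered 1 and -0.08 between libraries numbered 2. Leaving out 1 of the 4 libraries moved the all-gene median to between -0.32 and 0.48. Here 1 factor gene had an unadjusted p under 0.05, higher, against 618 of all 8864 genes higher and 59 lower. By adjusted p the background was 0.226%. Both mutant libraries lay above both heterozygote libraries for 7 factor genes (background 16.9%) and below them for 4 (background 3.84%). In hfp the median was 0.12 against -0.07, and by adjusted p the background was 0.993%. An unadjusted p under 0.05 was reached by 2 factor genes, both higher, against 641 of all genes higher and 273 lower. Both mutant libraries lay above for 5 (background 19.8%) and below for 3 (background 22.1%). The gene eIF6 was at 202 and 220 TPM in the hfp heterozygote and 403 and 313 TPM in the hfp mutant, with no overlap (0.75, SE 0.26, limma adjusted p = 0.273). The gene eIF4G2 was at 66.7 and 58.8 TPM in the hfp heterozygote and 21.0 and 43.0 TPM in the mutant, lower in both (-1.03, SE 0.85, limma adjusted p = 0.877).

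The elongation paralog eEF1alpha2 was higher in the 5 test groups than in both libraries of their own controls, without passing in any of the 5 fits. It was at 4.43 and 3.53 TPM in tst mutants (log2 fold change 1.67, limma adjusted p = 0.0762) and 3.40 and 2.42 TPM under tst RNAi (1.31, adjusted p = 0.372). It was at 0.393 and 3.12 TPM in the pelo heterozygote and 4.19 and 6.21 TPM in the pelo mutant (1.35, limma adjusted p = 0.427). It was at 0.757 and 0.404 TPM in the hfp heterozygote and 3.79 and 1.76 TPM in the hfp mutant (1.21, limma adjusted p = 0.381). Muscle sheath markers (7 of 7, none at 0) moved with it, summing to 2179 and 1285 TPM in tst mutants, 2563 and 2515 TPM under tst RNAi, 199 and 629 TPM in the pelo heterozygote and 1854 and 1645 TPM in its mutant, and 379 and 240 TPM in the hfp heterozygote and 1789 and 1210 TPM in its mutant. Their part in the eEF1alpha2 values was not tested.

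**Figure D3:**
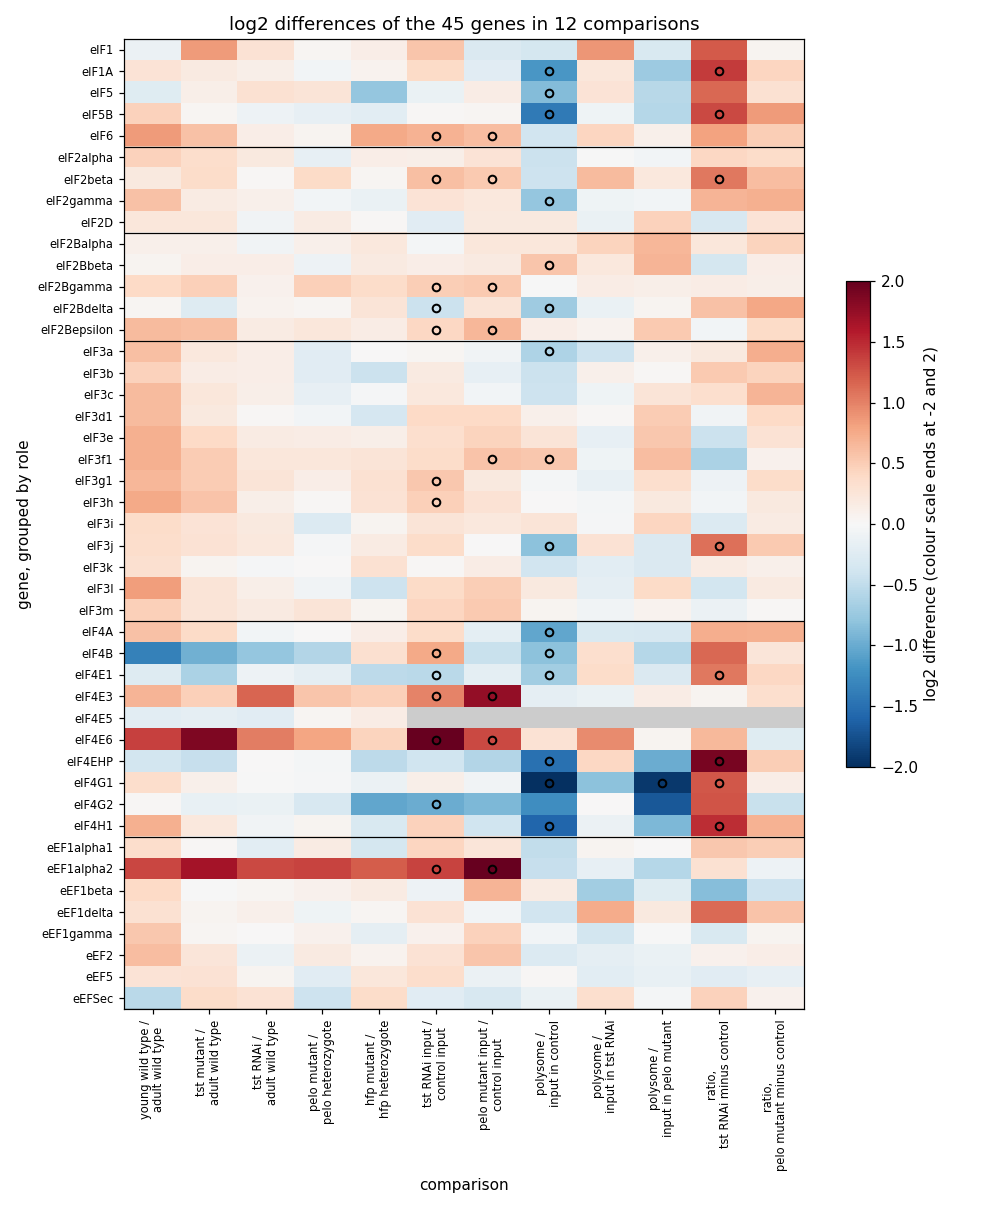
Log2 difference of each of the 45 genes (rows, by role) in the 12 comparisons (columns), red for higher and blue for lower, with a circle where limma's adjusted p was under 0.05 and grey where not tested. No circle stands in the 5 total mRNA comparisons, where 0.226% to 11.1% of all genes passed. The tst RNAi and pelo input comparisons hold 13 and 8 circles of 44 genes tested (54% and 31.5% of all genes). The control polysome comparison holds 15 of 44 (41.7% of all genes). The input circles include eIF4E3, eIF4E6 and eEF1alpha2, which reached the filter of 1 TPM through their RNAi or mutant libraries alone.

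Factor genes did pass between the input libraries. Of 44 tested, 10 rose and 3 fell in tst RNAi inputs against control inputs (background 21.7% rose and 32.3% fell), with a median of 0.31 for the factor genes and -0.17 for all genes. In pelo mutant inputs 8 rose and none fell (background 14.6% rose and 16.9% fell), with medians of 0.20 and -0.15. At an unadjusted p under 0.05, 2 factor genes had lower values, against 2305 of all 8426 genes. The share of rises was thus close to the background and that of falls below it. The genes eIF4E3, eIF4E6 and eEF1alpha2 reached the filter of 1 TPM through their RNAi or mutant libraries alone, so their calls follow from the filter and support nothing. Without them 7 of 41 rose and 3 fell in tst RNAi and 5 rose in pelo inputs. Leaving out 1 input at a time moved the number of calls among factor genes and among all genes. Across these fits the factor median ran from 0.16 to 0.36 in tst RNAi and from 0.12 to 0.25 in pelo inputs. That of all genes ran from -0.21 to -0.15 and from -0.21 to -0.09. A fit without a control input also keeps only 1 of the 2 control genotypes. Each of the 10 and 5 calls of the other genes was lost without at least 1 library. Late follicle cell and eggshell markers (10 of 10, none at 0) summed to 32233 and 55342 TPM in control, 13192 and 11505 TPM in tst RNAi and 35859 and 28060 TPM in pelo inputs, and their part in the factor values was not tested.

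In the start codon and subunit joining group eIF6 was at 140 and 151 TPM in control, 216 and 256 TPM in tst RNAi and 219 and 228 TPM in pelo mutant inputs. Both control values were the lowest, and eIF6 rose by 0.69 (SE 0.14, limma adjusted p = 0.00495) in tst RNAi inputs. In pelo inputs eIF6 rose by 0.62 (SE 0.14, limma adjusted p = 0.0193). Total mRNA showed no such separation for eIF6. Under tst RNAi its libraries held 165 and 205 TPM, overlapping the 195 and 146 TPM of the adult controls. The pelo mutants held 256 and 181 TPM, on either side of their heterozygotes with 205 and 208 TPM. The tRNA-binding complex gene eIF2beta was at 567 and 570 TPM in control, 835 and 884 TPM in tst RNAi and 786 and 842 TPM in pelo inputs, and rose by 0.59 (SE 0.14, limma adjusted p = 0.00813) and 0.52 (SE 0.14, adjusted p = 0.0290). Of the eIF2B subunits, eIF2Bgamma (0.50, limma adjusted p = 0.0383) and the catalytic eIF2Bepsilon (0.41, adjusted p = 0.0396) rose in tst RNAi and eIF2Bdelta fell (-0.42, adjusted p = 0.0346). In pelo inputs eIF2Bgamma (0.53, limma adjusted p = 0.0487) and eIF2Bepsilon (0.66, adjusted p = 0.0154) rose.

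All 13 eIF3 subunits had positive values in tst RNAi inputs (median 0.36), and 10 of them lay above both controls (background 31.4%). Of these eIF3g1 (0.54, SE 0.13, limma adjusted p = 0.00999) and eIF3h (0.47, SE 0.14, adjusted p = 0.0253) rose. In pelo inputs 10 of 13 were positive (median 0.21) and eIF3f1 rose (0.57, limma adjusted p = 0.0495). With each library scaled to the same median, 12 of the 13 subunits and 30 of the 44 genes rose in tst RNAi inputs and none fell (background 36.7% and 17.8%), a scaling that took the all-gene median from -0.17 to 0.27.

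The cap-binding group went both ways in tst RNAi inputs. The canonical eIF4E1 was at 756 and 845 TPM in control and 561 and 536 TPM in tst RNAi inputs, below both controls, and fell (-0.54, SE 0.15, limma adjusted p = 0.0151). The testis paralog eIF4G2 was at 32.4 and 27.1 TPM in control and 16.6 and 12.3 TPM in tst RNAi inputs and fell (-0.999, SE 0.31, limma adjusted p = 0.0278). In pelo inputs eIF4E1 was at 658 and 739 TPM, and eIF4G2 at 11.1 and 21.2 TPM (-0.90, SE 0.31, limma adjusted p = 0.0597).

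The low paralogs of the cap-binding protein went different ways. The gene eIF4E6 (3R, 29026439 to 29027174) was listed at 0 and 0.169 TPM in control, 7.63 and 7.28 TPM in tst RNAi and 1.98 and 1.43 TPM in pelo inputs. The differences were 2.97 (SE 0.26) in tst RNAi and 1.32 (SE 0.26) in pelo inputs. The gene eIF4E3 was at 0.149 and 0.112 TPM in control, 1.79 and 0.80 TPM in tst RNAi and 2.41 and 3.31 TPM in pelo inputs, with differences of 0.99 (SE 0.31) and 1.76 (SE 0.31). The gene eIF4E5, which was not tested, was at 0.910 and 0.796 TPM in control, 1.49 and 0 TPM in tst RNAi and 0 and 0.193 TPM in pelo inputs. The helicase cofactor eIF4B was at 1.29 and 1.33 TPM in control and 2.81 and 3.03 TPM in tst RNAi inputs (0.76, SE 0.27, limma adjusted p = 0.0431), a call lost without any 1 of the 4 libraries. Testis markers (5 of 8 matched, 1 or 2 of them at 0 except in pelo input 2) summed to 2.88 and 4.04 TPM in control, 12.8 and 11.3 TPM in tst RNAi and 5.45 and 7.98 TPM in pelo inputs, and their part in these values was not tested.

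No elongation gene that reached the filter in control inputs passed. The paralog eEF1alpha2, which did not reach it there, was at 0.583 and 0.917 TPM in control, 3.31 and 3.57 TPM in tst RNAi and 5.39 and 10.1 TPM in pelo inputs, with no overlap with control. The differences were 1.35 (SE 0.32) and 2.27 (SE 0.32). Muscle sheath markers (7 of 7, none at 0) summed to 312 and 407 TPM in control, 4631 and 4580 TPM in tst RNAi and 2898 and 3821 TPM in pelo inputs, and germline markers to 2377 and 2015 TPM, 830 and 746 TPM, and 1254 and 1520 TPM. Their part was not tested. For eEF1beta and eEF2 in pelo inputs the values were 0.68 and 0.55, with limma adjusted p = 0.0592 and 0.101.

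**Figure D4:**
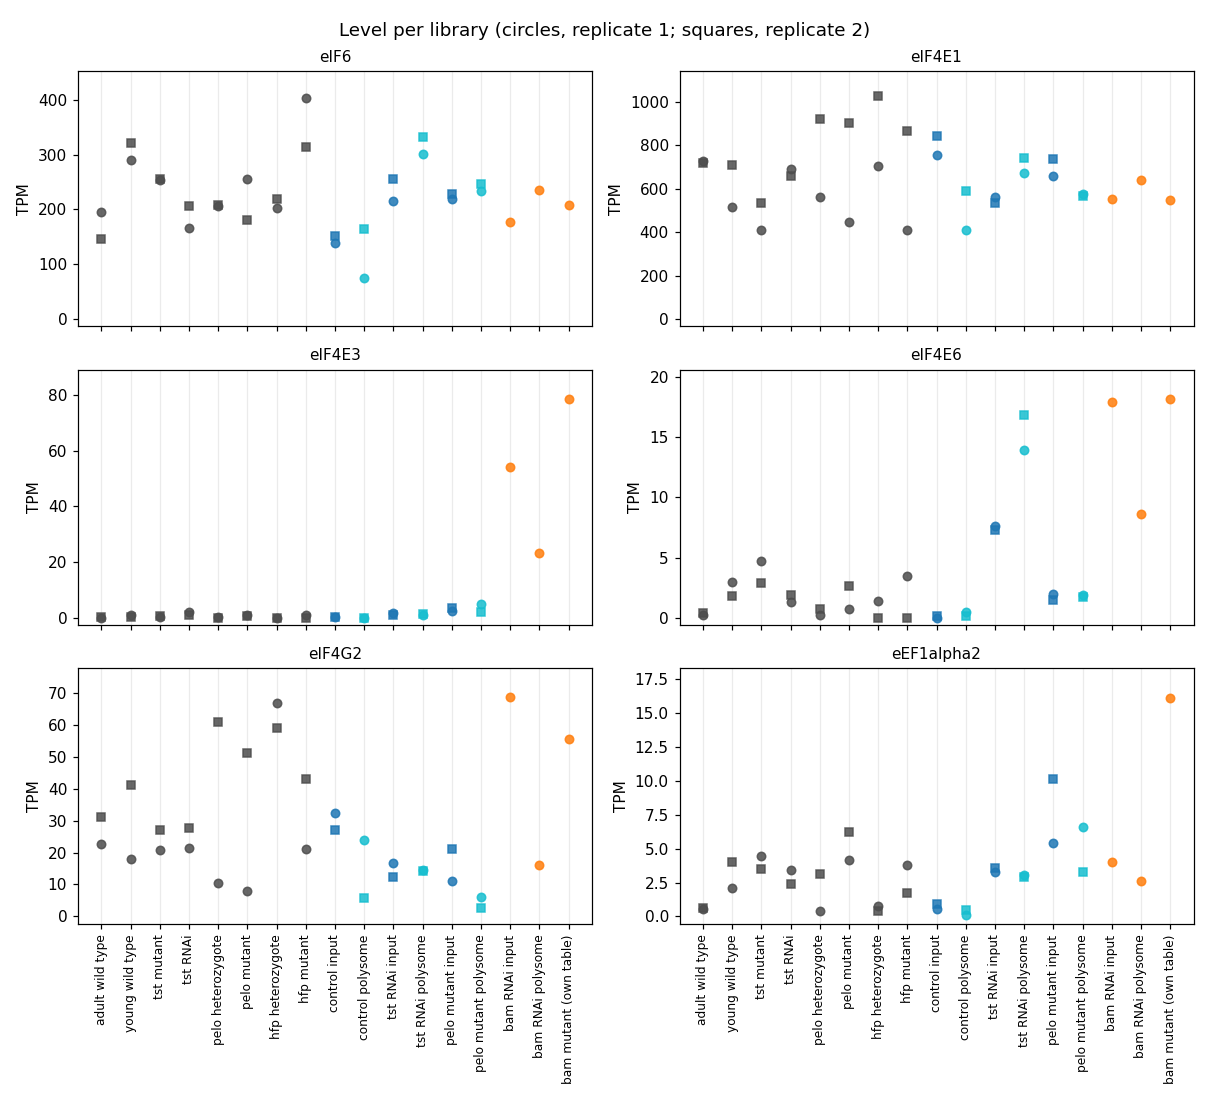
TPM per library of 6 factor genes in every group (circles, replicate 1; squares, replicate 2; grey, total mRNA; blue, inputs; cyan, polysomes; orange, bam libraries), each panel with its own axis from 0. In the tst RNAi and pelo mutant inputs eIF6, eIF4E6 and eEF1alpha2 lie above both control inputs, and eIF4E3 reaches 54.0 TPM after bam RNAi and 78.6 TPM in bam mutants.

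Polysome to input ratios ask which factor mRNAs are over- or under-represented in the ribosome-bound fraction. In control ovaries 13 of 44 factor genes fell and 2 rose (background 38.4% fell and 3.25% rose), mainly cap-binding and start codon genes and a smaller share of falls than among all genes, while 11 of 13 eIF3 and 8 of 8 elongation genes lay above the median gene. The median log2 ratio was -0.38 for factor genes and -0.55 for all genes, so a ratio near 0 was above most genes. Late follicle cell and eggshell markers (10 of 10, none at 0) summed to 32233 and 55342 TPM in control inputs and 59144 and 111105 TPM in their polysomes. TPM are shares of a fixed total, and the part of these genes in the ratios was not tested.

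The eIF4G1 mRNA, on chromosome 4 (915297 to 930715), had the lowest ratio. It was at 180 and 204 TPM in control inputs and 53.8 and 37.9 TPM in polysomes, below both inputs (-2.06, SE 0.27, limma adjusted p = 0.00184). Its paralog eIF4G2 went from 32.4 and 27.1 TPM to 23.8 and 5.77 TPM (-1.24, SE 0.47, limma adjusted p = 0.0601). The helicase cofactor eIF4H1 fell from 356 and 187 TPM to 80.1 and 90.1 TPM (-1.59, SE 0.27, limma adjusted p = 0.00291). The repressor eIF4EHP fell from 39.4 and 36.3 TPM to 16.8 and 9.75 TPM (-1.49, SE 0.28, limma adjusted p = 0.00378). In the same group eIF4A (-1.03), eIF4B (-0.81) and eIF4E1 (-0.70) fell as well, which made 6 of 9. The subunit joining GTPase gene eIF5B fell from 147 and 149 TPM to 50.2 and 60.1 TPM (-1.42, SE 0.19, limma adjusted p = 0.00184), and eIF1A (-1.17) and eIF5 (-0.87) fell too.

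In control polysomes some subunit genes of a complex passed and others did not, and differences between subunits were not tested. In eIF3 the loosely bound subunit gene eIF3j (-0.82, SE 0.20, limma adjusted p = 0.0101) and eIF3a (-0.62, SE 0.21, adjusted p = 0.0388) fell and eIF3f1 rose (0.55, SE 0.19, adjusted p = 0.0408), with a median over 13 of 0.01 and 11 of 13 above the median gene. In eIF2B the subunit gene eIF2Bbeta rose (0.55, SE 0.20, limma adjusted p = 0.0493) and eIF2Bdelta fell (-0.72, SE 0.21, adjusted p = 0.0211). The eIF2 subunit gene eIF2gamma fell (-0.77, SE 0.21, limma adjusted p = 0.0178). The ratios of eIF2alpha (-0.75 and -0.10) and eIF2beta (-0.74 and -0.07) were negative in both preparations too, without a call. Of the 15 calls, those of eIF5 and eIF4B were lost without either preparation, those of eIF2gamma, eIF2Bdelta, eIF3f1 and eIF4E1 without preparation 1, and those of eIF2Bbeta and eIF3a without preparation 2. No elongation gene passed, their median was -0.20, and all 8 lay above the median gene.

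The number of these calls depended on scaling, and 4 of the 15 (eIF2gamma, eIF2Bdelta, eIF3a and eIF4E1) turned direction with equal library medians and none under the other scalings. With equal library medians, where the all-gene median became 0.24, 14 factor genes rose and 2 fell (background 15.4% and 6.61%). Quantile normalization gave 6 rises and 6 falls (background 10.4% and 9.34%), and rescaling without the 50 highest genes gave 2 and 5 of 41 (background 4.85% and 25.1%). With equal medians the falls were eIF4G1 (-1.28, limma adjusted p = 0.0105) and eIF4EHP (-0.71), and 7 eIF3 and 4 eIF2B subunit genes rose. The ratio of eIF4G1 fell in all 4 versions, and the cap and helicase median stayed negative in all 4 (-1.03, -0.25, -0.60 and -0.87).

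**Figure D5:**
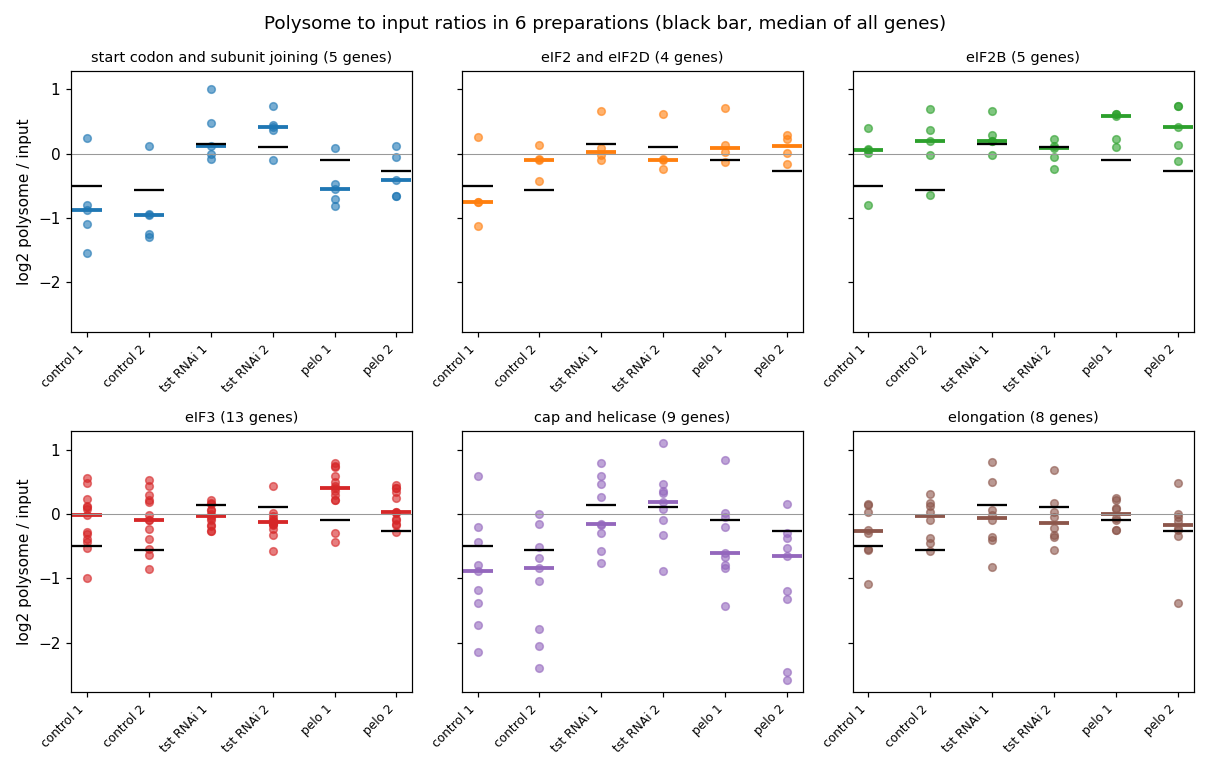
Log2 polysome to input ratio of the 44 tested genes in 6 preparations, in 6 panels by role, with coloured bars for the median of the role and black bars for the median of all genes. In both control preparations the cap and helicase median (-0.88 and -0.84) lies below the all-gene median (-0.50 and -0.56) and the eIF3 median (-0.01 and -0.08) above it.

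In tst RNAi no factor gene passed in the polysome to input comparison (background 0.035%). The unadjusted p was under 0.05 for 4 factor genes higher and 2 lower, and for 812 of all 8572 genes higher and 175 lower. The eIF4G1 mRNA was at 250 and 175 TPM in inputs and 147 and 93.7 TPM in polysomes (-0.83, SE 0.27, limma adjusted p = 0.295). The eIF4E6 mRNA was at 7.63 and 7.28 TPM in inputs and 13.9 and 16.8 TPM in polysomes (0.95, SE 0.28, limma adjusted p = 0.276). The eIF1 mRNA was at 2184 and 2486 TPM and at 4386 and 4176 TPM (0.88, SE 0.29, limma adjusted p = 0.297). These 3 genes had both polysome libraries on 1 side of both inputs.

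In the pelo mutant eIF4G1 was the only factor gene to pass (background 0.607% rose and 5.3% fell), at 146 and 228 TPM in inputs and 54.0 and 41.0 TPM in polysomes (-1.94, SE 0.27, limma adjusted p = 0.0246). The call was lost without pelo preparation 2 (limma adjusted p = 0.30) and held without preparation 1 (adjusted p = 0.0468). Its paralog eIF4G2 went from 11.1 and 21.2 TPM to 5.99 and 2.71 TPM (-1.69, SE 0.47, limma adjusted p = 0.0629). The 5 eIF2B subunit genes all had positive ratios, with a median of 0.52, and the median of eIF3 was 0.26 against -0.18 for all genes.

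The difference in ratio between tst RNAi and control was positive and passed for 8 of 44 factor genes, and no factor gene passed in the other direction (background 22% and 0.968%). The factor median of 0.37 was below the median of all genes, 0.70. The 8 were eIF4EHP (1.90, SE 0.39, limma adjusted p = 0.0180), eIF4H1 (1.47, SE 0.38, adjusted p = 0.0278), eIF1A (1.39, SE 0.28, adjusted p = 0.0173), eIF5B (1.33, SE 0.27, adjusted p = 0.0174), eIF4G1 (1.24, SE 0.39, adjusted p = 0.0464), eIF3j (1.11, SE 0.28, adjusted p = 0.0256), eIF4E1 (1.06, SE 0.28, adjusted p = 0.0282) and eIF2beta (1.05, SE 0.30, adjusted p = 0.0372). For eIF4EHP the log2 ratios were -1.19 and -1.79 in control, 0.47 and 0.35 in tst RNAi and -0.67 and -1.32 in pelo preparations. For eIF5B they were -1.53 and -1.30 in control, -0.08 and -0.10 in tst RNAi and -0.47 and -0.66 in pelo preparations. Control and tst RNAi ratios did not overlap for either gene. In contrast 12 of 13 eIF3 subunit genes were below the median gene in this difference, and so were all 5 eIF2B genes.

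None of the 8 calls remained with quantile normalization, equal library medians, or rescaling without the 50 highest genes, nor without either tst RNAi preparation, while 10 rose and 1 fell without control preparation 1 (of all 8552 genes 3021 and 131) and 12 rose and 1 fell without control preparation 2 (of all 8558 genes 2199 and 196). The call of eIF4G1 was lost without control preparation 2. In these fits the arm of 1 preparation is assumed to vary like the others. Without a call, large separate differences were seen for eIF1 (1.23, limma adjusted p = 0.0569), eIF5 (1.14, adjusted p = 0.0592), eIF4B (1.15, adjusted p = 0.0589), eIF4G2 (1.25, adjusted p = 0.183) and eEF1delta (1.13, adjusted p = 0.0877). For pelo against control no factor gene passed and no gene at all did in limma (background 0%, unadjusted p under 0.05 for 5 factor genes, all higher, and for 1007 genes higher and 133 lower), with medians of 0.32 and 0.40. Without control preparation 2, where control is 1 preparation assumed to vary like the others, 7 factor genes passed, all higher, while 914 of all 8558 genes rose and 173 fell.

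Genes of the same pathway without the eIF or eEF prefix were taken from a list of 43 symbols, of which 7 are factor genes under older names, 5 did not match and 31 were measured. None of the 31 passed in the 5 total mRNA comparisons, where the most abundant, the poly(A)-binding protein gene pAbp, was at 1233 and 1393 TPM in adult and 1548 and 2581 TPM in young wild type (0.61, SE 0.53, limma adjusted p = 0.548). In tst RNAi inputs 3 rose and 8 fell, both smaller shares than the 21.7% and 32.3% of all genes. The eIF4E inhibitor gene Thor was at 52.7 and 141 TPM in control, 470 and 336 TPM in tst RNAi and 484 and 477 TPM in pelo inputs, and rose in both (2.19, limma adjusted p = 0.00288, and 2.46, adjusted p = 0.00584). The stress response factor gene Xrp1 was at 15.3 and 23.8 TPM in control, 105 and 82.4 TPM in tst RNAi and 59.7 and 88.8 TPM in pelo inputs, and also rose in both (2.23, limma adjusted p = 4.72e-04, and 1.88, adjusted p = 0.00379). The ATF4 gene crc rose in tst RNAi (1.00, limma adjusted p = 0.0437).

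The 8 falls in tst RNAi inputs were raptor (-1.64), Tsc1 (-1.31), PEK (-1.11), Gcn2 (-0.93), NAT1 (-0.80), Gyf (-0.79), Tor (-0.68) and mIF3 (-0.59). In pelo inputs 3 rose and 3 fell (background 14.6% and 16.9%), the further ones being mEFTu2 (0.68) up and Tsc1 (-0.84), Rheb (-0.69) and PEK (-0.57) down. In control polysomes 17 of 31 fell and none rose (background 38.4% and 3.25%), among them the helicase gene bel (-1.82), larp (-1.82), pAbp (-1.80), Gyf (-1.79) and the eIF4E kinase gene Lk6 (-1.77). In the pelo mutant 7 fell (background 5.3%), and 12 rose in the tst RNAi minus control difference (background 22%), led by Lk6 (2.26). No gene of all rose in that difference by quantile normalization, equal library medians or rescaling without the 50 highest genes, so none of the 12 calls was kept. In pelo polysomes 1 of all genes fell with equal medians and none with no replicate block, while 4.63% fell by quantile normalization and 3% after rescaling.

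Depletion of bam, which leaves undifferentiated germ cells, was measured in single libraries, so no test was made. A gene was read as apart where the bam RNAi input lay at least 1 log2 beyond both control inputs, and of 41 factor genes at 1 TPM in at least 2 of these 3 libraries 1 lay above and 1 below (background 13.1% above and 11.7% below). The testis paralog eIF4G2 was at 68.6 TPM against 32.4 and 27.1 TPM in control inputs, and at 16 TPM on bam RNAi polysomes. The subunit joining gene eIF5B was at 70.7 TPM against 147 and 149 TPM. The bam mutant, from a table of its own and so normalized separately, had 55.6 and 81.4 TPM of these mRNAs.

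The other 4 factor genes did not reach that minimum and are given as values alone. The testis cap-binding gene eIF4E3 was at 54.0 TPM in bam RNAi input, 23.3 TPM on its polysomes and 78.6 TPM in bam mutants, while control inputs had 0.149 and 0.112 TPM. The gene eIF4E6 was at 17.9, 8.66 and 18.2 TPM in those 3 libraries, against 0 and 0.169 TPM. The elongation paralog eEF1alpha2 was at 3.99, 2.64 and 16.1 TPM, against 0.583 and 0.917 TPM. The gene eIF4E5 was at 0.472, 0 and 0.479 TPM, against 0.910 and 0.796 TPM, so it was not higher. Beside them testis markers (5 of 8 matched) summed to 32.1 TPM in bam RNAi input and 39.5 TPM in bam mutants, and muscle sheath markers to 7209 and 6711 TPM. In other markers these libraries differed. Fat body markers summed to 65.3 and 1897 TPM, against 22.9 and 66.1 TPM in control inputs. Late follicle cell and eggshell markers summed to 6945 and 56799 TPM, against 32233 and 55342 TPM. The part of these markers was not tested. The median log2 difference of bam RNAi polysome and input was 0.01 over the 41 factor genes and -0.09 over 7640 genes.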

How the data were processed

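Poly(A) RNA-seq was measured in 31 libraries. Per the submitters' processing notes, tools named were HISAT2 2.0.5 and featureCounts 1.5.1 with build dm6, and the TPM formula is not given in the sources used here. Values were deposited by the authors as log2 TPM per the file headers. Raised from log2 and less 0.5 each column summed to the total that defines TPM, so they were read as log2(TPM + 0.5), turned back to TPM and analysed as log2(TPM + 1), which understates folds of low genes. Depth is unknown and limits low genes most.

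A gene entered a fit if at least 2 of its libraries reached 1 TPM, which left 8864 genes for total mRNA, 8426 for inputs and 8572 for polysomes. The fits in limma 3.58.1 (R 4.3.3, trended variance) covered the 16 total mRNA libraries, the 6 inputs, or the 12 input and polysome libraries with preparation as a block. P-values were adjusted by Benjamini-Hochberg over all genes, with a threshold of 0.05. The scripts were tested on simulated data. Python 3.11.15 and matplotlib 3.10.9 drew figures.

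Deviations of same-numbered libraries correlated at 0.620 to 0.766 among wild type and tst groups and at 0.173 to 0.727 among pelo and hfp groups, so the replicate number was also fitted as a block, with one effect in each set. The members, gene lists and marker lists were chosen with earlier results of these data known. Named were genes that passed, those with separate groups and a difference of at least 1 log2, the highest and lowest of each role, and paralogs. eIF3, eIF5 and eIF4B examples outside that rule were chosen after their values were seen. Coordinates are from the RefSeq gene table of Release 6, where 45 of 45 genes matched.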

Additional observations from a re-analysis of the deposited data

Results flagged for a closer look

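The change in polysome to input ratio differed between tst RNAi and control for 8 factor genes by limma's test of the interaction: eIF4EHP (1.90), eIF4H1 (1.47), eIF1A (1.39), eIF5B (1.33), eIF4G1 (1.24), eIF3j (1.11), eIF4E1 (1.06) and eIF2beta (1.05), all on the log2 scale and higher in tst RNAi. The median gene differed by 0.70 in this comparison. Of all genes 22% passed in that direction. None of the 8 calls was kept by quantile normalization, equal library medians or rescaling without the 50 highest genes, or without either tst RNAi preparation.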

How the results depend on the processing

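Counts of factor genes that passed were recomputed with other pseudocounts, filters, scalings, fits and left-out libraries. For young wild type (none as reported), 2 passed by quantile normalization, 2 with equal library medians, 5 in a fit of these groups alone and 6 with the replicate block. Of all genes 1015, 1197, 2191 and 1822 passed in those fits, against 983 as reported. For the tst mutant 1 passed with the block, against 995 of all 8864 genes. For tst RNAi inputs (13) there were 30 with equal medians, 8 in groups alone and 8 with the replicate block. Of all genes 4586, 4301 and 4058 passed in those fits, against 4548 as reported. For pelo inputs (8) there were 13 with equal medians, 5 in groups alone, 5 with the replicate block and 5 without trend. Of all genes 2510, 1884, 1787 and 2290 passed in those fits, against 2652 as reported. Same-numbered inputs did not deviate together (correlations -0.0076 to -0.244), so the block there shares only a number. For control polysomes (15) there were 7 after rescaling without the 50 highest genes and 8 in groups alone. Of all genes 2549 and 2384 passed in those fits, against 3572 as reported. For tst RNAi polysomes (0) groups alone gave 10, and the count of all genes in that fit is not given here. For pelo polysomes (1) there were 0 without a filter, 3 by quantile normalization, 0 with equal medians, 12 in groups alone and 0 with no replicate block. Of all genes 506 passed as reported, and 235 rose and 397 fell by quantile normalization. With equal medians 0 rose and 1 fell, and with no replicate block none passed. The all-gene counts without a filter and in groups alone are not given here. For the tst RNAi minus control ratio (8) the 3 scalings gave 0 each. Of all genes 54 fell with equal medians and none passed by the other scalings. Leaving out 1 library or preparation gave 0 to 1 genes for young wild type, 0 for the other total mRNA comparisons and tst RNAi polysomes, 2 to 19 and 2 to 21 for tst RNAi and pelo inputs, 11 to 16 for control polysomes, 0 to 1 for pelo polysomes, and 0 to 13 and 0 to 7 for the tst RNAi and pelo ratio differences. Calls among all genes moved as well when an input or preparation was left out, so these ranges are not particular to factor genes. Directions turned for eIF4B in tst RNAi inputs by quantile normalization (-0.24), and for eIF2Bdelta there with equal medians (0.017). With equal medians they also turned for eIF2gamma (0.011), eIF2Bdelta (0.065), eIF3a (0.16) and eIF4E1 (0.085) in control polysomes. The block changed no other call in total mRNA. The causes were not tested.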
